A study of Mus musculus with 12 samples.

Results

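Angiopoietin-like proteins and the lipases they regulate control how triglyceride leaves lipoproteins in the circulation. The genes considered here are Angptl4, Angptl6, Angptl8, Lpl, Lipc, Lipg, Lipa and Vldlr, chosen by name. Of these 8 genes, 7 had probe sets annotated to that symbol alone, 16 probe sets in all out of 22626 tested, and Lipc was not analysed here. Liver RNA came from 6 Pctp-/- male mice on the FVB/NJ background and from 6 male wild-type littermates. Pctp encodes phosphatidylcholine transfer protein (PC-TP, StarD2), which carries phosphatidylcholine between membranes. Every animal, the wild type included, received 0.2% fenofibrate, an activator of the nuclear receptor PPARα, in the diet for 7 days from 8 weeks of age and was killed at 9 weeks. Each liver was hybridised to its own Affymetrix array. All differences are therefore between genotypes under the drug, and an unmedicated diet was not analysed here. The labels do not state how Pctp was disrupted.

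Lipoprotein lipase, the product of Lpl, hydrolyses the triglyceride of chylomicrons and VLDL on the capillary wall. ANGPTL4 inhibits it and is induced by fasting and by PPAR agonists, whereas ANGPTL8, made in liver and fat, rises with feeding and insulin and takes part in the control of lipoprotein lipase. ANGPTL6 is a related protein secreted by the liver. Endothelial lipase (Lipg) acts mainly on the phospholipids of HDL, lysosomal acid lipase (Lipa) hydrolyses cholesteryl esters and triglycerides taken up by the cell, and the VLDL receptor (Vldlr) binds triglyceride-rich particles. In mouse liver Angptl4, Lpl and Vldlr are known to respond to PPARα agonists.

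Angptl8 is the member with the largest difference, and its annotated start region is therefore shown. In the mouse assembly GRCm38.p6 it covers bases 21835510 to 21837347 of chromosome 9, on the plus strand. It lies inside Dock6, a guanine nucleotide exchange factor gene of the minus strand that runs from 21800180 to 21852718. The 300 bases of its promoter region in RefSeq, chr9:21835260-21835559 on the plus strand, are given 5′ to 3′, with the 50 bases from the annotated start onward in capitals.
Angptl8: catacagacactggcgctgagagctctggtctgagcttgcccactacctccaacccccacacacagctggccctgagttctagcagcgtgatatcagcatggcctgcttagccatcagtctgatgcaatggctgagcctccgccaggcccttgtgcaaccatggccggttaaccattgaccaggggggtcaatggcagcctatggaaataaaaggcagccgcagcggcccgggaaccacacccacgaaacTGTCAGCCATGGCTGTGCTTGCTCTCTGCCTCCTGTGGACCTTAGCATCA
Short motifs were searched in it on both strands. These were AGGTCA (the nuclear receptor half-site), CACGTG (an E-box), CCAAT and TATAAA, which occur in 16.3%, 7.15%, 37.4% and 13.6% of 32851 RefSeq promoter regions of the same length. None of these strings occurred in the Angptl8 window, which says only that these letters are not in it.

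The intensities, in the authors' scaled units, had array medians between 84.0 and 91.2, and precision is set by the number of arrays. Pctp had an intensity of 82.5 ± 12.3 in Pctp-/- livers and 2855 ± 77.2 in wild-type livers (SD, n = 6 each), so the arrays matched their labels. Hepatocyte markers had nearly equal summed levels, from 67662 to 68812 in Pctp-/- and from 65848 to 69574 in wild type. Most of this sum came from Alb, Ttr, Apoa1 and Apoa2, which were very bright on every array, so it says little of the other markers. Of 8 measured markers 1 passed the test, Cps1, where 11.7% of all genes did. That call ended without Pctp-/- replicate 1, 2 or 5 or wild-type replicate 3, 4 or 5. It also ended with the replicate number as a block (adjusted p = 0.0645, limma). Control probe sets for RNA integrity differed for 3 of 4 transcripts. The beta-actin 5′ probe set over its 3′ one gave a log2 ratio that ran from -1.27 to -1.05 in Pctp-/- and from -1.77 to -1.41 in wild type, without overlap (exact permutation test, adjusted p = 0.00289). The same ratio differed by 0.11 for Gapdh and by 0.33 for pyruvate carboxylase (exact permutation tests, adjusted p = 0.00289 each), and by 0.07 with overlapping groups for the transferrin receptor (exact adjusted p = 0.652). The part of these ratios in the results cannot be told apart from genotype. Wild-type replicate 4 stood apart in muscle markers. The summed level of 8 such markers lay between 141 and 183 on the Pctp-/- arrays and between 152 and 192 on the other 5 wild-type arrays, and was 1368 on wild-type replicate 4. There the muscle actin Acta1 read 405.9 and myoglobin (Mb) read 392.8.

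Angptl8 and Lipg were higher in Pctp-/- livers, and no other member passed the test by its brightest probe set. By that probe set, 2 of the 7 measured genes passed as higher and 0 as lower, where 6.44% and 5.21% of all 12393 genes did (11.7% in either direction). Of the 16 probe sets 3 passed as higher and 1 as lower, where 6.82% and 5.15% of all probe sets did (12% in either direction). An unadjusted p under 0.05 was found for 8 of the 16 and for 5949 of all 22626 probe sets. These shares are descriptions, as the members were chosen with earlier results of these arrays known. The test was limma on log2(intensity + 16), two-sided, with an adjusted p under 0.05 over all probe sets as the threshold, and folds and differences are on that scale, which understates changes of dim probe sets. The median difference, Pctp-/- minus wild type, was 0.07 over the 7 genes and 0.01 over all genes. In whole liver, fewer cells of a type and less RNA per cell cannot be told apart.

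**Figure D1:**
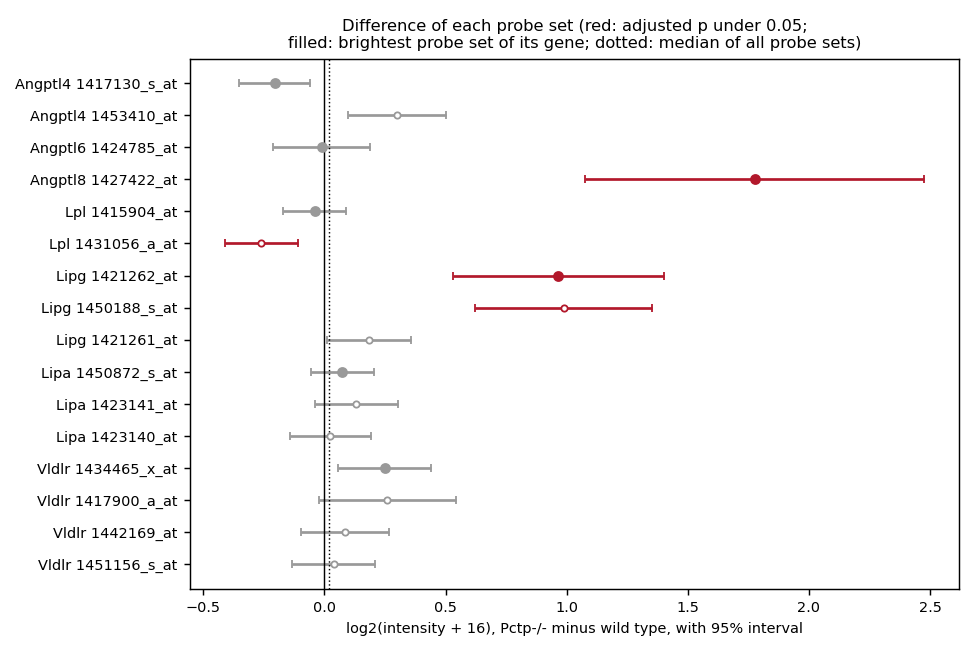
Difference between Pctp-/- and wild-type livers for the 16 probe sets, on the log2(intensity + 16) scale, with 95% intervals from the limma fit; red marks an adjusted p under 0.05 and filled points the brightest probe set of a gene. Angptl8 at 1.78 and the 2 brighter Lipg probe sets at 0.97 and 0.99 lie far to the right, and the other 13 probe sets lie between -0.26 and 0.30.

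Among the angiopoietin-like members, Angptl8 was the gene that passed the test. Its probe set, 1427422_at, read 346.5, 306.8, 166.3, 216.7, 1037.6 and 449.0 in Pctp-/- replicates 1 to 6, and 108.3, 94.2, 84.8, 89.5, 88.5 and 83.1 in wild-type replicates 1 to 6. All 6 Pctp-/- arrays lay above all 6 wild-type arrays, which were close together and near the median of all probe sets. The means were 420.5 ± 318 in Pctp-/- and 91.4 ± 9.14 in wild type (SD, n = 6 each), a ratio of 4.60. On the log2 scale the difference was 1.78 (SE 0.324, 95% interval 1.07 to 2.48, adjusted p = 0.00483, limma), the value ranked 2 of 12393 genes from the top. Replicate 5 carried part of its size: without it the Pctp-/- mean was 297.0 ± 111 (SD, n = 5), the difference was 1.47 and the adjusted p was 0.00205. The Pctp-/- values also spread more widely than the wild-type values. The lowest, in replicate 3, was 166.3, and the highest of the other 5 animals was 449.0.

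Dock6, within which Angptl8 lies on the opposite strand, was also higher in Pctp-/- livers. Its probe set read from 466.1 to 583.7 with a median of 528.2 in Pctp-/-, and from 293.2 to 456.5 with a median of 389.2 in wild type. The groups did not overlap, and the difference was 0.45 (SE 0.0888, adjusted p = 0.00696, limma). The order of the arrays differed between the genes: Pctp-/- replicate 5, the highest for Angptl8, was the second lowest of its group for Dock6. With group means subtracted, the correlation between Angptl8 and Dock6 over the 12 arrays was -0.11 (Spearman's rho -0.06), a description only. Whether either transcript binds the other gene's probes was not tested.

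Angptl4, the PPAR-responsive inhibitor, was bright and did not pass. Its brighter probe set, 1417130_s_at, ran from 1752 to 2135 with a median of 2008 in Pctp-/- and from 2009 to 2558 with a median of 2302 in wild type. All 6 Pctp-/- arrays lay below the wild-type mean and 3 lay below every wild-type array. The difference was -0.20 (SE 0.0678, 95% interval -0.35 to -0.06, adjusted p = 0.0702, limma). It passed without wild-type replicate 1, the array with its lowest wild-type value (-0.24, adjusted p = 0.0322). The other probe set, 1453410_at, was near the bottom of the intensity scale, at 14.0 ± 3.10 in Pctp-/- and 8.46 ± 3.05 in wild type (SD, n = 6 each). It leaned the opposite way, at 0.30 (adjusted p = 0.0539, limma), passing without Pctp-/- replicate 6 or wild-type replicate 1 (adjusted p = 0.0323 and 0.0299). Whether its signal exceeded background was not tested. Angptl4 lies on chromosome 17 from 33774900 to 33781575.

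Angptl6 had no detectable difference. Its probe set, 1424785_at, was dim, from 57.1 to 79.3 with a median of 72.5 in Pctp-/- and from 56.8 to 85.8 with a median of 71.5 in wild type. The groups overlapped almost fully. The difference was -0.01 with a 95% interval from -0.21 to 0.19 (adjusted p = 0.957, limma), and its sign turned in 5 of the 12 fits that left out 1 array. Angptl6 lies on chromosome 9 from 20873808 to 20879822, where its end overlaps the neighbouring gene Shfl.

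**Figure D2:**
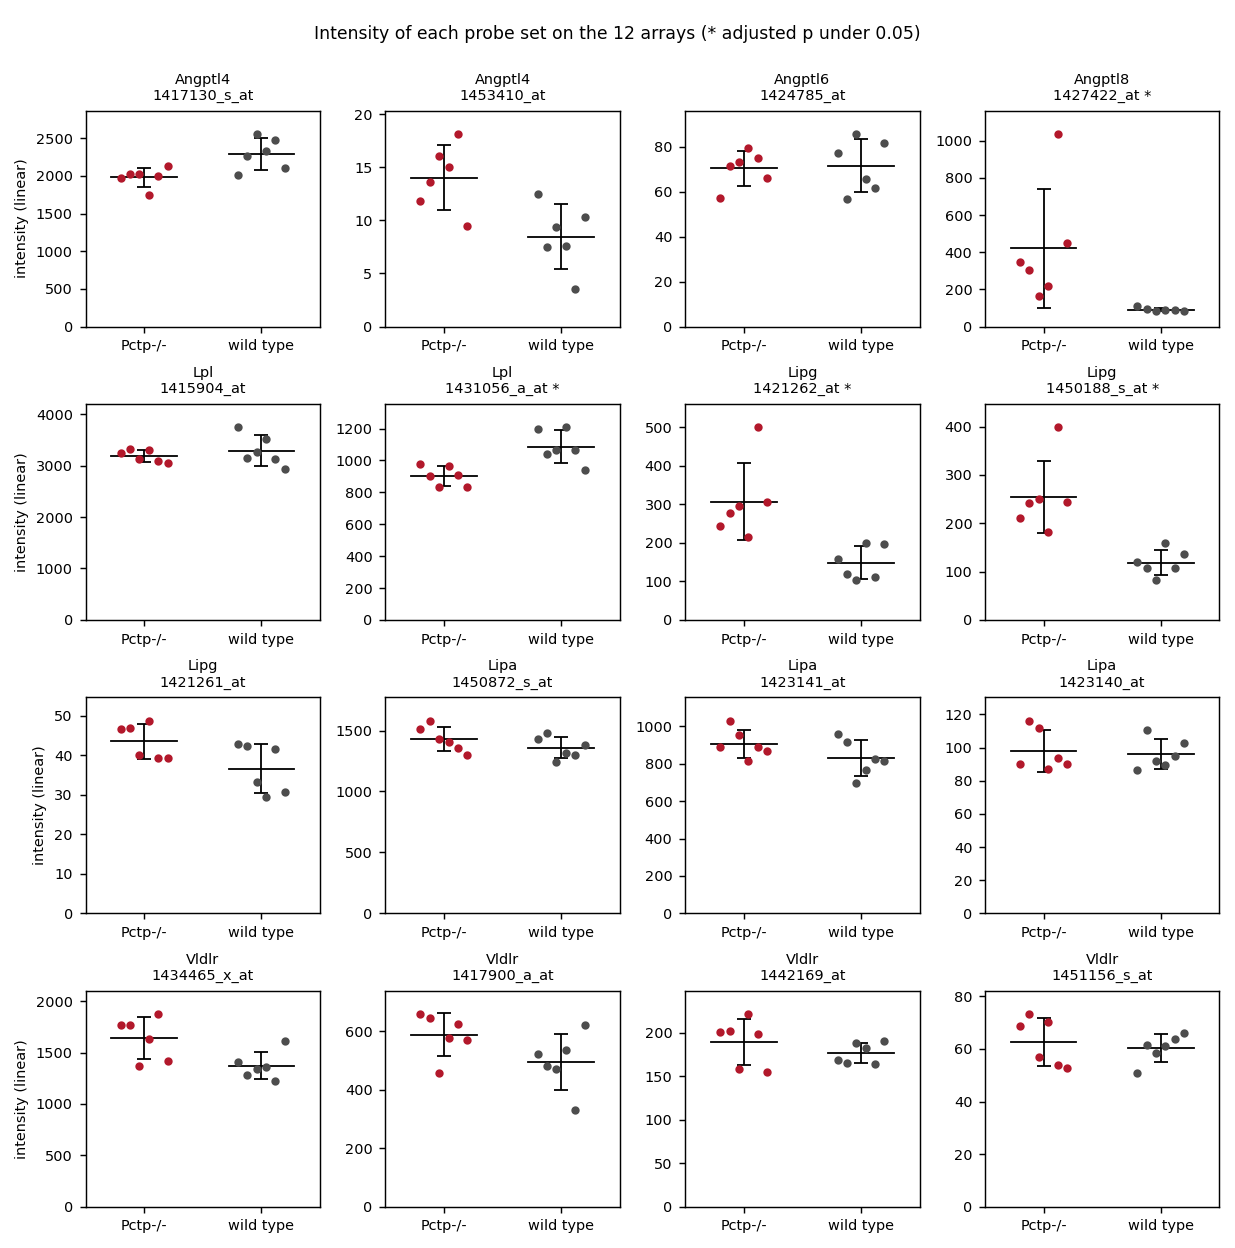
Intensity on the linear scale of each of the 16 probe sets in the 6 Pctp-/- livers (red, left) and 6 wild-type livers (grey, right); points are arrays in replicate order, horizontal lines are means and bars are SD. The groups are fully apart for Angptl8 and for the 2 brighter Lipg probe sets, and overlap for the other 13.

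Among the lipases, Lipg about doubled in Pctp-/- livers. The brightest of its 3 probe sets, 1421262_at, read 244.7, 278.0, 296.0, 216.5, 500.1 and 305.8 in Pctp-/- replicates 1 to 6, and 158.8, 119.6, 103.8, 200.3, 111.2 and 196.6 in wild-type replicates 1 to 6. Every Pctp-/- array lay above every wild-type array, the narrowest gap being between Pctp-/- replicate 4 and wild-type replicate 4. The means were 306.8 ± 100 in Pctp-/- and 148.4 ± 43.2 in wild type (n = 6 each, SD). The difference was 0.97 (SE 0.200, 95% interval 0.53 to 1.40, adjusted p = 0.00891, limma), ranked 28 of 12393 genes.

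A second Lipg probe set, 1450188_s_at, gave the same picture. It ran from 182.7 to 398.7 with a median of 242.7 in Pctp-/- and from 82.5 to 159.8 with a median of 113.8 in wild type, a difference of 0.99 (SE 0.169, adjusted p = 0.00374, limma). The 2 followed each other from array to array, with a correlation of 0.96 over the 12 arrays after group means were subtracted. All 3 Lipg probe sets are annotated to the same source sequence, so these 2 are not independent readings. The groups did not overlap for 3 of the 16 probe sets, these 2 and that of Angptl8, where 6.75% of all probe sets had no overlap. By the brightest probe set these were 2 of the 7 genes, where 6.78% of all genes had none. The third Lipg probe set, 1421261_at, was dim, at 43.5 ± 4.38 in Pctp-/- and 36.6 ± 6.23 in wild type (SD, n = 6 each). It differed by 0.18 and did not pass (adjusted p = 0.167, limma), and within groups it ran against the brightest (r = -0.61, 12 arrays).

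The authors' deposited table of 727 selected probe sets holds 2 of the 16, both of Lipg, and so gives no present call for Angptl8. The authors' deposited table gives the 2 Lipg probe sets folds of 2.06 (bounds 1.5 and 2.81) and 2.12 (bounds 1.61 and 2.76), with a present call on 100% of the arrays of each genotype. Without Pctp-/- replicate 5, the highest array for both, the differences were 0.82 and 0.86 (adjusted p = 0.0126 and 0.00437, limma). Lipg is on chromosome 18.

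Of 12 measured markers of endothelial cells, a known source of endothelial lipase, 1 rose and 1 fell, with a median difference of 0.01. Over all genes, 6.44% passed as higher and 5.21% as lower. Fcgr2b, the Fc receptor of sinusoidal endothelium, rose by 0.52 (adjusted p = 0.000489, limma), and von Willebrand factor (Vwf) fell by 0.42 (adjusted p = 0.0111, limma) at a low level of 23.1 ± 4.25 in Pctp-/- and 36.2 ± 5.88 in wild type (n = 6 each, SD). The summed level of the 12 ran from 3136 to 3495 in Pctp-/- and from 2938 to 3450 in wild type, so the groups overlapped. Their part in the Lipg difference was not tested.

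**Figure D3:**
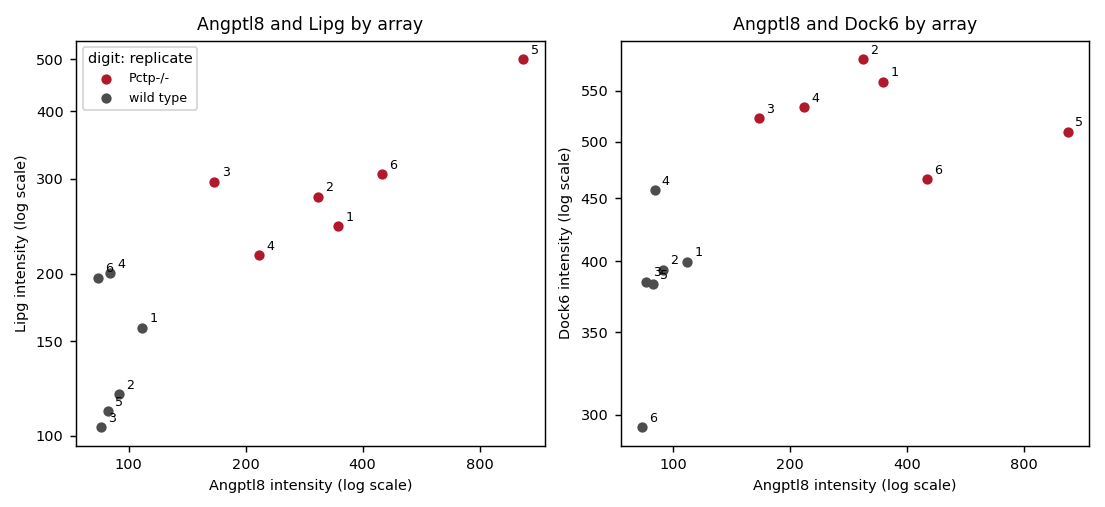
Intensity of Angptl8 (horizontal, log scale) against the brightest Lipg probe set (left panel) and Dock6 (right panel, both vertical on a log scale) on each array, with replicate numbers; red points are Pctp-/- and grey points wild type. Pctp-/- replicate 5 is highest for both Angptl8 (1037.6) and Lipg (500.1) but not for Dock6 (509.7).

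Pctp-/- replicate 5 had the highest value of Angptl8 and of both brighter Lipg probe sets. With group means subtracted, the correlation between the 2 genes over the 12 arrays was 0.59 (rho 0.45), the highest of the 21 pairs among the 7 genes. It was 0.19 without Pctp-/- replicate 5, with the group means still taken over all 12 arrays, so that it rests on that array. Over the 21 pairs the correlations ran from -0.49, for Angptl4 and Lipa, to 0.59, with a median of -0.07. All pairs share the same arrays, and these values are descriptions.

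Lpl was among the brightest genes of the table and its 2 probe sets disagreed. The brighter, 1415904_at, ran from 3053 to 3314 with a median of 3191 in Pctp-/- and from 2929 to 3746 with a median of 3204 in wild type. The Pctp-/- values lay wholly inside the wild-type range. The difference was -0.04 with a 95% interval from -0.17 to 0.09 (adjusted p = 0.726, limma). The other, 1431056_a_at, ran from 830.8 to 975.7 with a median of 907.2 in Pctp-/- and from 937.4 to 1208 with a median of 1066 in wild type. There 4 of 6 Pctp-/- arrays lay below every wild-type array, and it fell by 0.26 (SE 0.0690, adjusted p = 0.0278, limma). The call depended on single arrays: leaving out Pctp-/- replicate 2, 3 or 6, or wild-type replicate 1 or 4, took the adjusted p past 0.05, up to 0.0581. Lpl lies on chromosome 8 from 68880555 to 68906932.

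The unequal change of the 2 Lpl probe sets was itself larger than the spread between arrays. Their log2 ratio on the same array, the dimmer over the brighter, was -1.81 ± 0.0724 in Pctp-/- and -1.59 ± 0.0415 in wild type (n = 6 each, SD). The groups did not overlap, and a two-sided exact permutation test gave p = 0.00216, the smallest it can give, or 0.0195 adjusted over the 9 such ratios of the members. The other 8 ratios had adjusted exact p from 0.0536 to 0.922. These ratios were chosen after the values were seen.

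Lpl is also expressed in muscle and fat, so markers of both were read beside it. Wild-type replicate 4, which stood apart in muscle markers, read 3525 and 1208 for the 2 probe sets, the second highest and the highest of all arrays. Without it the differences were -0.02 (adjusted p = 0.889, limma) and -0.23 (adjusted p = 0.0581, limma). Wild-type replicate 1 was as high (3746 and 1198) with a summed muscle level of 192. No muscle marker of the 8 passed the test, where 11.7% of all genes did. Of 5 fat markers none passed. Their summed level ran from 11219 to 12026 in Pctp-/- and from 10822 to 11900 in wild type, but it was made up almost wholly of Car3 and Fabp4, which were bright on every array. The defining marker adiponectin (Adipoq) ran from 7.96 to 18.3 in Pctp-/- and from 7.53 to 37.4 in wild type, and leptin (Lep) was at most 6.45 in Pctp-/- and 7.75 in wild type. The highest values of both were again on wild-type replicate 4. Of 13 macrophage markers, cells that also make Lpl, none passed. Their summed level ran from 5219 to 7255 in Pctp-/- and from 3853 to 9373 in wild type. The part of these cells in the Lpl values was not tested.

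**Figure D4:**
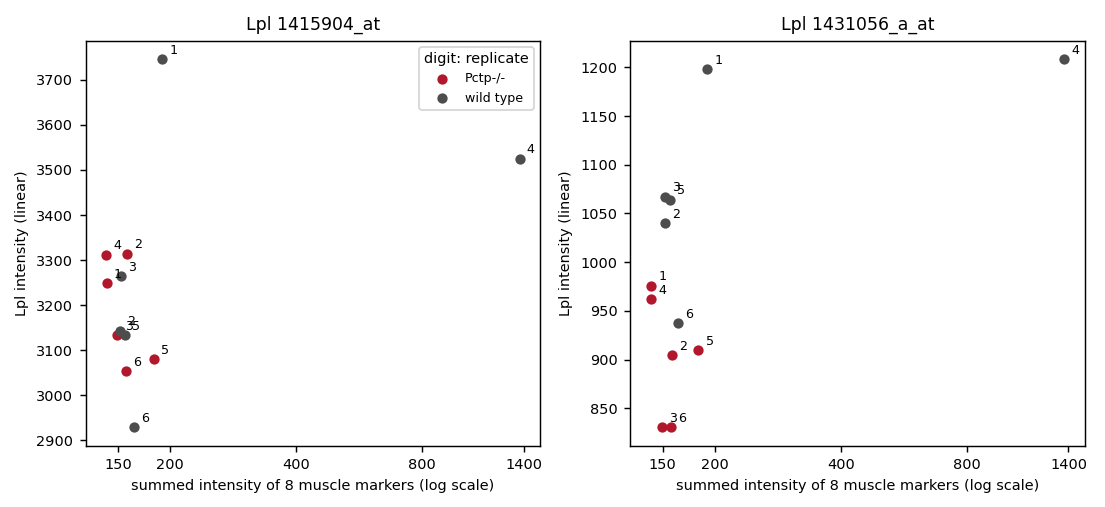
Intensity of the 2 Lpl probe sets (vertical, linear scale; the axes do not start at 0) against the summed intensity of 8 muscle markers (horizontal, log scale) on each array, with replicate numbers; red points are Pctp-/- and grey points wild type. Wild-type replicate 4 lies alone at the right, at 1368.

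Lipa, the lysosomal lipase, did not differ detectably in any of its 3 probe sets. The brightest, 1450872_s_at, ran from 1300 to 1581 with a median of 1418 in Pctp-/- and from 1244 to 1478 with a median of 1347 in wild type. The ranges overlapped over most of their length. The difference was 0.07 with a 95% interval from -0.05 to 0.20 (adjusted p = 0.478, limma), and the other 2 were at 0.13 and 0.02 (adjusted p = 0.327 and 0.887), the last turning sign under other scalings. Lipa lies on chromosome 19 from 34492316 to 34527474.

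The receptor gene Vldlr had differences above 0 in all 4 probe sets and passed in none. The brightest, 1434465_x_at, ran from 1369 to 1874 with a median of 1698 in Pctp-/- and from 1227 to 1611 with a median of 1350 in wild type. There 4 of 6 Pctp-/- arrays lay above every wild-type array, while Pctp-/- replicates 3 and 6 lay within the wild-type range. The difference was 0.25 (SE 0.0885, 95% interval 0.06 to 0.44, adjusted p = 0.0899, limma), and it passed without Pctp-/- replicate 3 (0.30, adjusted p = 0.0444). The next, 1417900_a_at, was at 0.26 with a wider interval from -0.02 to 0.54 (adjusted p = 0.229), and the dimmer pair were at 0.08 and 0.04, the last turning sign without Pctp-/- replicate 2 or wild-type replicate 1. By the maker's naming, the suffix _x_at marks probes that may bind other transcripts. Vldlr lies on chromosome 19 from 27216480 to 27254231.

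Partners of the lipases were measured as lists drawn up by function, with earlier results of these arrays known. In 13 measured genes of lipolysis cofactors, folding and cleavage, 1 rose and 3 fell, where 6.44% and 5.21% of all genes did. The median difference of the list was -0.01. Apoa5, an apolipoprotein that promotes triglyceride clearance, fell 1.29-fold, at 5003 ± 435 in Pctp-/- and 6482 ± 648 in wild type (SD, n = 6 each, adjusted p = 0.00845, limma). Lmf1, an ER factor needed to mature lipoprotein, hepatic and endothelial lipase, fell 1.22-fold, at 181.9 ± 15.9 in Pctp-/- and 224.2 ± 10.0 in wild type (SD, n = 6 each, adjusted p = 0.00818, limma), without overlap. Furin, a protease that cleaves angiopoietin-like proteins and lipases, fell 1.21-fold (adjusted p = 0.0278, limma). Sel1l, an adaptor of ER-associated degradation that lipoprotein lipase needs to leave the ER, rose 1.16-fold (adjusted p = 0.0310, limma). The Furin call ended without Pctp-/- replicate 3 or 4 or wild-type replicate 2, 3, 5 or 6 (adjusted p from 0.0513 to 0.0565). The Sel1l call ended without Pctp-/- replicate 1 or 2 or wild-type replicate 1, 3, 5 or 6 (adjusted p from 0.0528 to 0.0657). Both also ended with the replicate number as a block (adjusted p = 0.0537 and 0.0750).

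Of 7 other measured angiopoietin and angiopoietin-like genes none passed, where 11.7% of all genes did. Tie1, an endothelial receptor of the angiopoietin system, was nearest at -0.19 (adjusted p = 0.0946, limma).

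Of 15 lipoprotein receptors and regulators 1 rose and 2 fell, where 6.44% and 5.21% of all genes did. The median of the list was 0.05. Lrp6, a Wnt co-receptor of the LDL receptor family, fell 1.36-fold without overlap, at 365.0 ± 29.6 in Pctp-/- and 502.2 ± 61.7 in wild type (SD, n = 6 each, adjusted p = 0.00528, limma). Lrp1, a remnant receptor of hepatocytes, fell 1.16-fold (adjusted p = 0.0303, limma). Reln, a secreted ligand of the VLDL receptor and also a stellate cell marker, rose 1.35-fold (adjusted p = 0.0463, limma). The Lrp1 call ended without Pctp-/- replicate 3, 4 or 6 or wild-type replicate 3, 4 or 6 (adjusted p from 0.0579 to 0.0654) and with the replicate block (0.101). The Reln call ended without any 1 of the Pctp-/- replicates or wild-type replicate 5 or 6 (adjusted p from 0.0599 to 0.0961), after quantile normalization (0.0731) and with the replicate block (0.0830). Of 12 measured stellate cell markers 4 rose, Reln included, where 6.44% of all genes did. The summed level of these markers ran from 3721 to 4477 in Pctp-/- and from 3175 to 3898 in wild type. Their part in the Reln difference was not tested.

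Of 22 other lipases and their cofactors 1 passed, where 11.7% of all genes did. It was Pnpla8, a calcium-independent phospholipase, 1.21-fold higher (adjusted p = 0.0390, limma). That call ended without Pctp-/- replicate 1, 2, 3, 4 or 6 or wild-type replicate 2, 3, 4 or 5 (adjusted p from 0.0527 to 0.0779), after quantile normalization (0.0519) and median centring (0.0729), and with the replicate block (0.0574).

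Genes of the signals known to act on the members were read beside them. Over all genes, 6.44% passed as higher and 5.21% as lower. Among 25 measured genes that PPARα raises, to which Angptl4, Lpl and Vldlr are akin, 5 rose and none fell, with a median of 0.05. The largest was Fgf21, a liver hormone, at 1.35, followed by the glycerol channel Aqp3 at 0.57, the thioesterase Acot2 at 0.36 and Hacl1, of peroxisomal alpha-oxidation, at 0.34 (adjusted p = 0.0008, 0.00438, 0.00246 and 0.00689, limma). Most of the list, 20 genes, did not pass. Among these were Cyp4a14 at 0.003, Ehhadh at 0.01, Cpt1a at -0.02, Cpt2 at -0.09 and Pdk4 at 0.30. Among 21 genes listed as lipogenic and responsive to insulin and carbohydrate, as Angptl8 is to insulin, 4 rose and 2 fell, with a median of 0.05. Those that rose were Aacs at 1.29, Mid1ip1 at 0.93, Srebf1 at 0.68 and Tfeb at 0.23. Tfeb was counted as listed, though it is not established as a lipogenic gene. The acetyl-CoA carboxylase genes Acaca and Acacb, which serve fatty acid synthesis and its control of oxidation, were the 2 that fell. The other 15 did not pass, among them Pklr at 0.13, Fasn at 0.10, Scd1 at 0.05, Acly at -0.01 and Thrsp at -0.33. Acaca fell by 0.61 at a low intensity of 26.6 ± 7.43 in Pctp-/- and 48.8 ± 7.41 in wild type (SD, n = 6 each). Among 15 genes of fasting that insulin represses none rose and 5 fell, with a median of -0.25, led by Pck1 at -0.91, Lpin1 at -1.22, Foxo3 at -0.68 and Ppargc1a at -1.28 (adjusted p = 2.46e-05, 0.00194, 0.00289 and 0.0119, limma). Of that fasting list 10 genes did not pass, among them Igfbp1 at -1.09, G6pc at -0.51, Foxo1 at -0.06, Tat at 0.02 and Cdkn1a at 0.43. All lists in this paragraph were drawn up with earlier results of these arrays known.

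**Figure D5:**
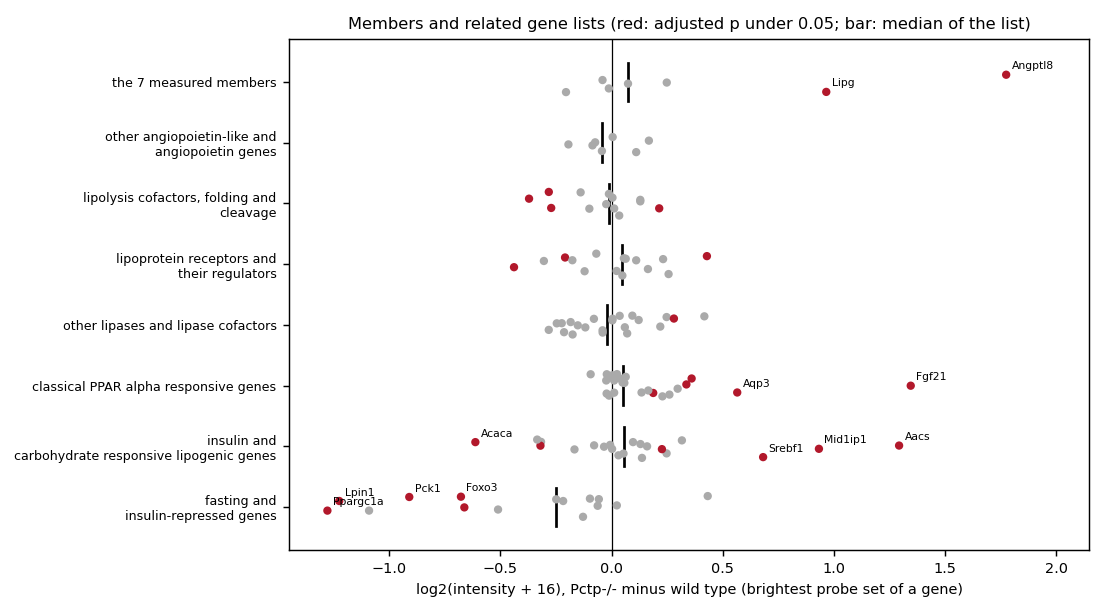
Difference between Pctp-/- and wild-type livers, by the brightest probe set of each gene on the log2(intensity + 16) scale, for the 7 measured members (top row) and 7 related lists; points are genes, red ones with an adjusted p under 0.05, and bars are list medians. Angptl8 at 1.78 is the rightmost point of all rows, and the fasting list has the lowest median, -0.25.

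The genes whose pattern over the arrays was most like that of a member were found from 9869 brighter probe sets, by Pearson's r over 12 arrays after group means were subtracted. For Angptl8 these were Inhbe (r = 0.86, rho 0.74), Sertad2 (0.85, rho 0.69) and Atxn7l3 (0.84, rho 0.49). Without Pctp-/- replicate 5 the r values were 0.78, 0.72 and 0.66. The group means subtracted there were still those of all 12 arrays, so that array's pull on them remains. Inhbe, which encodes the inhibin beta-E subunit secreted by the liver, was also higher in Pctp-/- livers, by 0.97 (adjusted p = 0.00575, limma). For Lipg they were Ahsa1 (0.90), Trmt2a (0.89) and Hspa4l (0.89). Of these, Ahsa1 and Hspa4l, which encode factors of the heat shock protein machinery, fell by 0.26 and 0.39 between genotypes (adjusted p = 0.00528 and 0.0387, limma), opposite to Lipg, while Trmt2a, which encodes a tRNA methyltransferase, rose by 0.20 (adjusted p = 0.0135, limma). The closest were Rcsd1 for Angptl4 (0.89), Uqcr10 for Angptl6 (0.93), Phf2 for Lpl (0.93), Mapre1 for Lipa (0.94) and Cbx1 for Vldlr (0.94). Each is the highest of many candidates, so the values are descriptions with no test.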

How the data were processed

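The authors deposited 1 linear intensity for each probe set on each array, by a program not given in the sources used here. A second file, the authors' deposited table of 727 probe sets, adds, per the file headers, a signed fold with bounds and a t score, a p-value, unadjusted, and present calls as a percent of arrays. Its test is not stated, and its 12 detection-call columns were not used. Probe sets were named from the platform annotation, with symbols updated through RefSeq (GRCm38.p6). Of 22690, 64 controls were left out. Each gene was read from its brightest probe set.

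Values were analysed as log2(intensity + 16) with limma 3.58.1 in R 4.3.3 (lmFit, eBayes), with Benjamini-Hochberg adjustment over 22626 probe sets and a threshold of 0.05. The procedure was tested on simulated arrays. Single ratios used exact permutation tests (scipy 1.17.1). Members and lists were chosen with earlier results of these data known. Named genes are all members, and in each list up to 4 with the smallest p past the threshold, or the 1 nearest. The 3 genes most like each member were found. All 3 are named for Angptl8 and Lipg, and only the closest for each other member. Dock6, as it overlaps Angptl8, and the cell type markers named were added after their values were seen. So were Acacb, Tfeb, Pklr, Fasn, Scd1, Acly and Thrsp. The same holds for Cyp4a14, Ehhadh, Cpt1a, Cpt2, Pdk4, Igfbp1, G6pc, Foxo1, Tat and Cdkn1a. Intervals are unadjusted 95% intervals. Same-numbered arrays of the genotypes had correlations of deviations from -0.08 to 0.08, so the numbers were not taken as pairs.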

Additional observations from a re-analysis of the deposited data

Results flagged for a closer look

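Pctp-/- replicate 5 stood apart from the other Pctp-/- livers for Angptl8, at 1037.57, with a gap to the next array of 0.675 of the group's range. It did so also for both brighter Lipg probe sets, at 500.146 and 398.672, with gaps of 0.685 and 0.691. Each gap, taken on linear intensities, exceeds Dixon's 95% critical value for 6 samples. Chance alone passes that value in about 5% of groups of normally distributed values, and 32 groups were looked at. Over all 22626 probe sets, the highest Pctp-/- array stood apart in this way in replicate 5 for 1.03% and in the other replicates for 0.685% to 0.963%. The differences without it are given beside each gene.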

How the results depend on the processing

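Angptl8 and both brighter Lipg probe sets kept their direction and an adjusted p under 0.05 in all 21 alternatives, with differences from 1.44 to 1.98 for Angptl8, and from 0.79 to 1.05 and 0.78 to 1.08 for Lipg. With 0.01 as the threshold, 970 probe sets passed. The count of member genes called lower was 1 in place of 0 with an added constant of 64, a minimum mean intensity of 100, median centring, and trended and robust variance. That gene was Angptl4 (adjusted p = 0.0434, 0.0311, 0.0443 and 0.0237). Without 1 array that count ran from 0 to 1. With the replicate number as a block, 4 member probe sets passed, as without it. Counts of calls in the related lists ran from 4 to 9 for PPARα genes, 1 to 5 for receptors, 2 to 4 for cofactors, 0 to 5 for other lipases, 2 to 4 for endothelial and for stellate markers, and 0 to 1 for the other angiopoietin-like genes. Vldlr passed among probe sets with a mean intensity of at least 100 (adjusted p = 0.0447). Signs turned only in probe sets far from the threshold: Angptl6 without 1 array (-0.063 to 0.035), the dimmest Lipa probe set after median centring (-0.0087), quantile normalization (-0.0097) or without 1 array (-0.020 to 0.060), and the dimmest Vldlr probe set without 1 array (-0.00056 to 0.075).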

Other observations

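The macrophage marker sum lay between 5219 and 7255 in the Pctp-/- livers. In wild type it was 9373 in replicate 2 and 9015 in replicate 5, and between 3853 and 4839 in the other 4 livers. The brighter Lpl probe set read 3143 and 3134 in wild-type replicates 2 and 5, within the range of the Pctp-/- livers.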
